A study of Mus musculus with 31 samples.

Results

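Cardiac type 1 conventional dendritic cells (cDC1) were compared between infarcted and steady-state mouse hearts, using the 8 cDC1 libraries (4 MI, 4 steady state) among the 31 RNA-seq libraries of the study. Balb/c mice supplied the hearts, which were taken at 8 to 12 weeks of age. In the infarcted group, myocardial infarction (MI) followed surgery in which the left anterior descending (LAD) artery of the heart was tied off permanently. The steady-state group is labelled by its state alone, and a sham-operated group was not analysed here. The other 23 libraries hold type 2 conventional dendritic cells (cDC2), monocyte-derived dendritic cells (moDC) and macrophages (MF) sorted from hearts in the same 2 states. After enzymatic digestion (Liberase, DNase) of every heart, cells were sorted by flow cytometry. The sources used here do not give the sort antibodies, the time after ligation, the sex of the mice or whether a library pools animals. Replicates are described as independent, with no animal named, so each p-value below measures the spread between these samples. The title of the study poses the question of whether infarction activates dendritic cells that then prime autoreactive T cells.

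Cells of the cDC1 lineage depend on the transcription factors IRF8 and BATF3, display the chemokine receptor XCR1, and bind the exposed actin of dead cells through CLEC9A. They are known for cross-presenting the antigens of dead cells on MHC class I to CD8 T cells. When they mature they turn on a programme that includes CCR7, the receptor that leads them to lymph nodes, costimulatory molecules and cytokines such as IL-12. Infarcted muscle is a source of dead cells and of danger signals, which are sensed through toll-like receptors and the cytosolic DNA pathway of STING.

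The label of the libraries was checked against its markers, in CPM (gene reads scaled to a common library size). Xcr1 was at 788.5 to 1039.5 CPM in the 8 cDC1 libraries and at most 5.20 CPM in any of the other 23. Clec9a was at 172.6 to 206.7 CPM against at most 10.9 CPM elsewhere, and Tlr3, which detects double-stranded RNA, at 257.4 to 445.6 against at most 25.6 CPM. Irf8 ranged from 3353 to 4168 CPM against at most 517.1 CPM, and Wdfy4, which is required for cross-presentation by cDC1, from 1090.1 to 2157 against at most 308.3 CPM. Each of these 5 genes separated all cDC1 libraries from all others. Batf3 did not, since its 8 values (51.0 to 73.1 CPM) met those of 1 cDC2 library at 52.2 CPM.

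Library size overlapped between the states only through MI replicate 3, and the other MI libraries were smaller than every steady-state one. The MI cDC1 libraries held 9389786 to 10586758 reads in genes and the steady-state ones 9947340 to 16531349. Reads outside any gene made up 8.998% to 10.95% of counted reads in MI and 8.39% to 14.9% at steady state, with the highest share in steady-state replicate 1, which is also the deepest library. Genes with a read numbered 11904 to 12338 in MI and 11747 to 13272 at steady state. The lowest of these was steady-state replicate 1, and the other steady-state libraries held 13159 or more, above every MI library. The part of these differences in the changes below was not tested.

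In the cDC1 libraries more genes were lower than higher after infarction. Of 13039 genes tested, 876 fell (6.72%) and 281 rose (2.16%) at an adjusted p under 0.05 in edgeR's quasi-likelihood test, so 8.87% changed. The falls were also steeper, with a median log2 change of -2.54 against 0.72 for the rises, and 677 genes fell by at least 2-fold (5.19%) while 82 rose by as much (0.629%). Over all genes tested the median log2 change was -0.03. The libraries of the 2 groups did not overlap for 1704 of them (13.1%). Much of the excess of falls lay among genes with few reads after infarction: 428 of the 876 averaged under 1 CPM in MI, and 172 had 0 reads in all 4 MI libraries. Among the 6599 genes at 10 CPM or more in all 8 libraries, rises and falls were closer in number, at 213 (3.23%) and 257 (3.89%), or 7.12% together, with 26 and 81 of them past 2-fold. This restriction was chosen after the data were seen, and it removes genes that fell to low levels.

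The steepest falls were of genes with few or no reads after infarction. Acta2, the smooth muscle actin of mural cells, stood at 48.4, 176, 109 and 54 CPM in the 4 steady-state libraries and at 0, 1.28, 0 and 0 CPM in the 4 MI libraries. Bcam, a laminin receptor of vessel walls, stood at 12.1, 63, 29.1 and 13.6 CPM at steady state, and its 4 MI libraries held 0 reads. The 2 groups did not overlap for either gene. Acta2 fell by 8.18 on the log2 scale (adjusted p = 3.71e-05). Bcam was at least 368-fold lower, with 3 reads over the MI group as the limit that a count of 0 allows (adjusted p = 5.34e-09). The same bound was 515-fold for Ltbp4, a matrix protein that binds latent TGF-beta, 198 for Sorbs2, 194 for the endothelial adhesion molecule Jam2, 187 for the pericyte gene Rgs4, 164 for Olfr558, 158 for Tinagl1 and 137 for the endothelial phosphatase Ptprb, all with 0 MI reads. With 1 to 3 MI reads, the ratio of summed counts was 485 for Igf2 (exact 95% interval 86.6 to 19171), 435 for the collagen chaperone Serpinh1 (77.8 to 17224) and 270 for Tm4sf1 (92.1 to 1312). These intervals and bounds cover counting error only. All 13 MI reads of Acta2 lay in replicate 2. Without steady-state replicate 2 the fitted log2 changes of Serpinh1 and Tm4sf1 went from -8.23 and -7.93 to -7.58 and -7.23, and those of Bcam and Ltbp4 from -11.30 and -11.68 to -10.61 and -11.03. The 12 genes named in this paragraph are those with the largest falls among genes that reached 10 CPM in a group and did not overlap.

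Markers of other heart cells were also lower in MI, where 6.72% of all genes tested fell and 2.16% rose. Of 14 mural genes tested, 13 fell and none rose, with a median log2 change of -6.84, or -5.56 with the genes at 0 set to their bounds. Their summed level was 117.3 to 391.1 CPM at steady state, highest in replicate 2 and lowest in replicate 4, and 2.15 to 5.66 CPM in MI. Of 18 endothelial genes, 15 fell, from a sum of 171.4 to 487.9 CPM to one of 51.8 to 83.5 CPM, and 5 of them (Cldn5, Emcn, Sox17, Tek and Tie1) had no MI read. Of 16 fibroblast genes, 8 fell, though the sum moved little (922.6 to 1072 CPM at steady state, 799.6 to 840.5 CPM in MI) because Gsn, an actin-severing protein not restricted to fibroblasts, made up nearly all of it, at 863.6 to 999.2 and 797.8 to 838.4 CPM. T cell markers summed to 7.75 to 20.8 CPM at steady state and 1.54 to 4.30 CPM in MI, with Cd3e, Cd3g, Cd28 and Lat at 0 in MI. Cardiomyocyte markers summed to 37.5 to 67.2 and 10.5 to 25.8 CPM. These lists move in the direction of most falls, and their part in the changes below was not tested, because the mural sums of the groups do not overlap and such a level cannot be told apart from the state. In sorted bulk samples, fewer cells of a type and less RNA per cell cannot be told apart either.

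**Figure D1:**
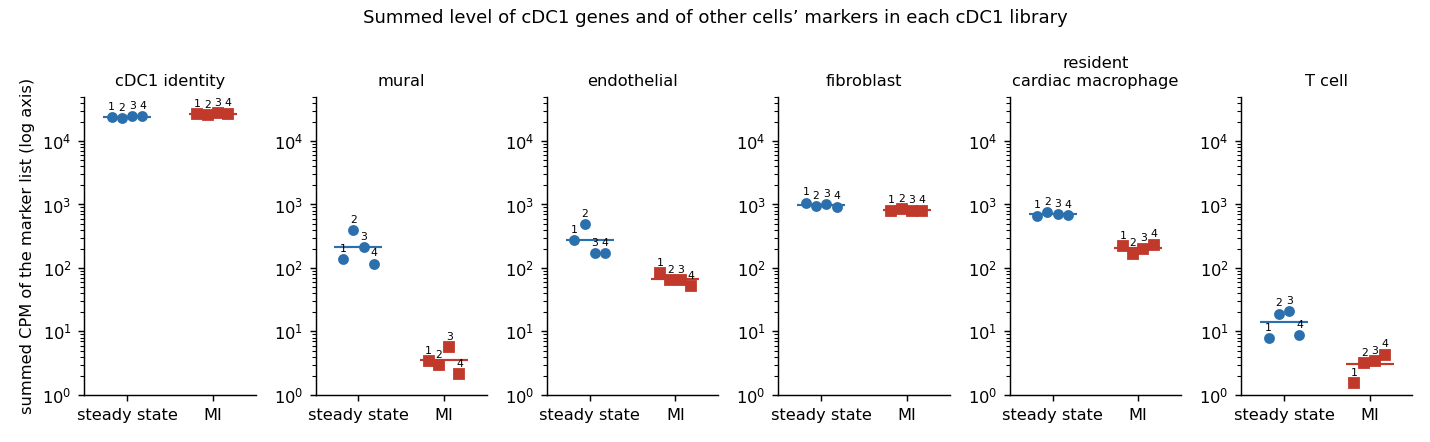
Summed CPM of 6 marker lists in each cDC1 library on a log axis, with circles for the 4 steady-state libraries, squares for the 4 MI libraries, numbers for the replicates and lines for group means. The mural sum lies at 117.3 to 391.1 CPM at steady state and 2.15 to 5.66 CPM in MI, and the sum of the cDC1 identity genes at 23242 to 24665 CPM at steady state and 25785 to 27818 CPM in MI.

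The cDC1 identity genes passed no test when all libraries were fitted. Of 28 identity genes, 0 rose and 0 fell, and their median log2 change was 0.15. The levels of 21 of the 28 were higher in MI, and each summed MI level (25785 to 27818 CPM) lay above each steady-state one (23242 to 24665 CPM). Xcr1 stood at 1027, 909, 1004 and 1039 CPM in MI and 923, 789, 1039 and 888 CPM at steady state (log2 change 0.13 ± 0.30 SE, adjusted p = 0.887), Clec9a at 195, 184, 199.8 and 207 and 201, 182, 194 and 173 CPM (0.07 ± 0.37 SE, adjusted p = 0.965). The libraries of the groups overlapped for both. Irf8 (log2 change 0.04 ± 0.13 SE), Batf3 (-0.01 ± 0.19) and Tlr3 (0.16 ± 0.29) had adjusted p of 0.915, 1 and 0.845. For Itgae, the alpha chain of CD103, the difference was 0.34 (adjusted p = 0.777) although the 4 MI libraries (888 to 1074 CPM) all lay above the 4 others (615 to 870.5). Wdfy4 (0.51, adjusted p = 0.116) and the growth factor receptor Flt3 (0.68, 0.0831) were likewise higher in each MI library than in any steady-state one and missed the threshold. The libraries of the groups did not overlap for 13.1% of all genes tested. Fitted on the 8 cDC1 libraries alone Wdfy4 and Flt3 passed (adjusted p = 0.00754 and 3.44e-04), as did Cadm1 (0.0465). In the fit on all libraries, the adhesion molecule Cadm1 differed by -0.36 (adjusted p = 0.241).

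A surface lectin outside that list separated the states. Cd207 (langerin), which marks a part of the CD103+ dendritic cells of mouse tissues, was at 376, 359, 374 and 354 CPM at steady state and 90.8, 77.4, 96.5 and 123 CPM in MI. The steady-state libraries lay within a narrow band, at more than 2 times the highest MI library. Its fall was 3.77-fold (log2 change -1.91 ± 0.36 SE, adjusted p = 0.000746). Timd4, a receptor for phosphatidylserine on dead cells, stood at 177, 265, 219 and 219 and 74.7, 57.1, 50.9 and 60.6 CPM in the same order, again without overlap, and fell 3.62-fold (adjusted p = 0.000189). Both genes sit in the list of resident cardiac macrophage markers. Of 24 tested, 0 rose and 10 fell, against 2.16% and 6.72% of all genes (sums of 669.4 to 753.5 CPM at steady state and 168.4 to 232.8 CPM in MI). Cd207, Timd4 and Sepp1 made up most of that sum. Of the other members, Gas6, Cd163 and F13a1 were at 5.07 to 13.1, 4.87 to 10.4 and 2.75 to 5.46 CPM at steady state and fell. The rest, among them Lyve1, Mrc1, Vsig4 and Pf4, were at most 3.13 CPM in every steady-state cDC1 library, a level that Stab1, which also fell, reached. In the steady-state macrophage libraries the list summed to 18443 to 22699 CPM.

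Genes of maturation and migration did not rise. Of 34 tested, 0 rose and 4 fell (Ccl17, Ccl5, Cd83 and Marcksl1), against 2.16% and 6.72% of all genes. The median log2 change was -1.11, against -0.03 for all genes. Ccr7, the receptor for lymph node chemokines, was at 411, 184, 123 and 81.6 CPM in MI and 211, 844, 525 and 149.9 CPM at steady state. Fscn1, the actin bundler of mature dendritic cells, was at 214, 103, 39.4 and 31.3 and 119, 504, 348 and 89.7 CPM, and the chemokine Ccl22 at 199, 50.8, 67 and 25.6 and 111, 454, 308 and 144 CPM. MI replicate 1 and steady-state replicates 2 and 3 were the highest of their groups for all 3 genes, and the groups overlapped. None of the 3 passed (log2 changes -1.11 ± 0.73, -1.45 ± 0.78 and -1.57 ± 0.77 SE, adjusted p = 0.433, 0.301 and 0.245). Il12b, a subunit of IL-12, followed the same libraries, at 121, 30.3, 28.1 and 21.1 CPM in MI and 26.4, 138, 84.6 and 23.8 CPM at steady state (log2 change -0.44 ± 0.80 SE, adjusted p = 0.848). Steady-state replicates 1 and 4 were the lower ones for Ccr7 and Il12b, so a fit against them alone had to raise both changes. The signs of the 2 genes then turned, to 0.14 and 0.99.

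Ccl17 and Ccl5, chemokines that attract T cells, fell in spite of that spread. Ccl17 was at 20.2, 8.28, 3.99 and 5.94 CPM in MI and 39.6, 64.7, 39.3 and 21.6 CPM at steady state, where the lowest steady-state library lay just above the highest MI one. It fell by 2.11 on the log2 scale (adjusted p = 0.00541). Ccl5 fell by 2.57 (27.7, 7, 6.03 and 3.99 CPM against 39.3, 96, 108 and 21.8 CPM, adjusted p = 0.00272), with MI replicate 1 above steady-state replicate 4, and its adjusted p was 0.0847 when only the 8 cDC1 libraries were fitted. Against steady-state replicates 1 and 4 alone neither passed (0.0707 and 0.137), and without MI replicate 1 the falls were 2.75 and 3.52. Cd83, which holds MHC class II and CD86 at the surface, fell 1.76-fold (adjusted p = 0.0259, up to 0.11 without steady-state replicate 2), and so did the maturation marker Marcksl1 (2.43-fold, 0.0195, up to 0.0896 without steady-state replicate 2).

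**Figure D2:**
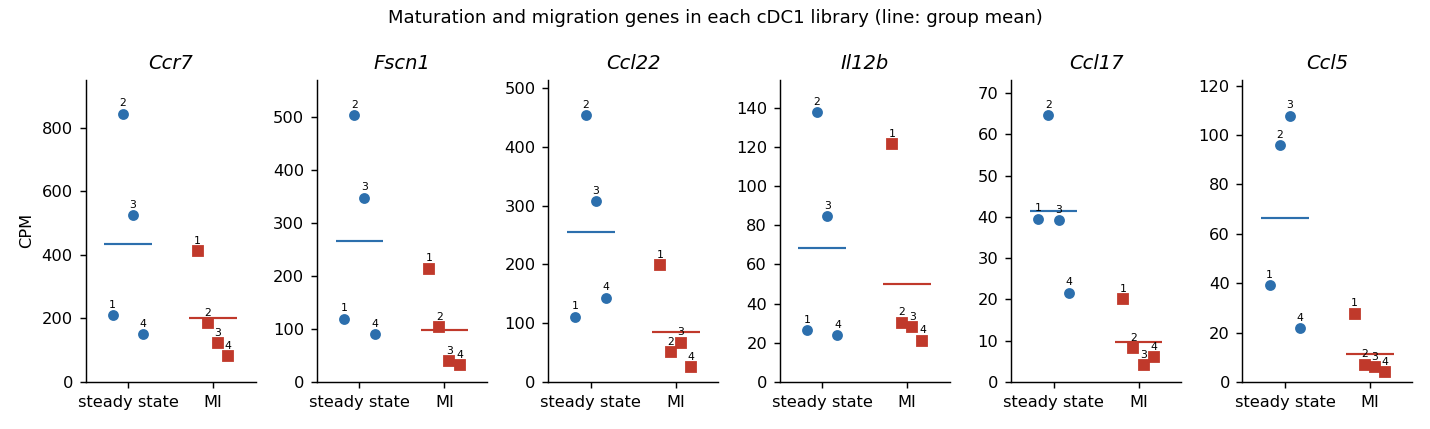
CPM of 6 maturation and migration genes in each cDC1 library, with circles for steady state, squares for MI, replicate numbers and lines for group means. In every panel MI replicate 1 is the highest MI library, and Ccr7 spans 81.6 to 410.7 CPM within MI and 149.9 to 843.7 CPM within steady state.

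Of 18 costimulatory and checkpoint ligands, 0 rose and 5 fell, against 2.16% and 6.72% of all genes. Their median log2 change was -0.61. Tnfsf9, the ligand of 4-1BB on T cells, was at 44.4, 56.6, 28.6 and 35.5 CPM at steady state and 17.8, 14.6, 13.6 and 12.9 CPM in MI, without overlap, and fell 2.8-fold (log2 change -1.49 ± 0.22 SE, adjusted p = 2.33e-05). Icosl, the ligand of ICOS, fell 2.55-fold from 73 ± 13.3 to 28.6 ± 8.34 CPM (mean ± SD, n = 4 each, adjusted p = 0.000435). Cd80, which binds CD28, fell 2.35-fold from 15.7 ± 4.28 to 6.69 ± 1.17 CPM (adjusted p = 0.00195), and the adhesion molecule Icam1 fell 2.00-fold (adjusted p = 0.00159). The fifth was Tnfsf8, the ligand of CD30, with a log2 change of -3.15 at a mean of 0.642 CPM in MI (adjusted p = 0.0018, or 0.0751 with the replicate number as a block). Cd86, the second ligand of CD28, showed no such difference: its 4 MI libraries held 449, 418, 423 and 479 CPM and the steady-state ones 465, 463, 466 and 454 CPM (log2 change -0.06 ± 0.17 SE, adjusted p = 0.904). Cd40, which receives T cell help, had a log2 change of -0.74 ± 0.24 SE that missed the threshold (adjusted p = 0.0515). It passed under 6 alternatives, among them DESeq2 (0.0288) and both other scalings (0.0417 and 0.0434), and with 1 library left out its adjusted p ranged from 0.00483 (without steady-state replicate 4) to 0.268 (without steady-state replicate 2).

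The cytokines moved in both directions. Il1b, the secreted inflammatory cytokine, was at 1083, 1500.4, 1612 and 2071 CPM in MI and 734, 1009, 557 and 711 CPM at steady state. Each MI library exceeded each steady-state one, and Il1b rose 2.08-fold (log2 change 1.06 ± 0.19 SE, adjusted p = 0.000435). Tnf took the opposite course, at 7.71, 12.1, 10.1 and 6.25 CPM in MI and 45.3, 44, 38.8 and 52.2 CPM at steady state. All 4 steady-state values were more than 3 times the highest MI value, and Tnf fell 4.97-fold (log2 change -2.31 ± 0.23 SE, adjusted p = 2.89e-08). Il1a fell 2.72-fold (adjusted p = 0.000653), and Ebi3, the shared subunit of IL-27 and IL-35, fell 2.34-fold (adjusted p = 1.09e-05). Of the 19 members tested, 1 rose and 5 fell, against 2.16% and 6.72% of all genes. The other falls were those of Il6 and Osm at low levels (Il6 at 0.514 to 2.56 CPM in MI and 1.5 to 11.2 CPM at steady state, with an adjusted p of 0.053 against steady-state replicates 1 and 4).

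Among the clearest rises were sensors and their adaptors. Tmem173, which encodes STING, the adaptor of cytosolic DNA sensing, stood at 308, 408, 358 and 302 CPM in the MI libraries and 111, 124, 132 and 112 CPM at steady state. The lowest MI library was more than 2 times the highest steady-state one. Tmem173 rose 2.87-fold (log2 change 1.52 ± 0.11 SE), with the smallest adjusted p (3.12e-11) of any gene at 10 CPM or more in all 8 libraries. Myd88, the adaptor of toll-like and IL-1 receptors, rose 1.82-fold, from 173 ± 17.2 to 316 ± 71.2 CPM (mean ± SD, n = 4 each, adjusted p = 0.000102). Among 22 pattern recognition genes, 4 rose (Tlr1 and Tlr13 were the others) and 2 fell, against 2.16% and 6.72% of all genes. The call of Tlr1 ended when only the 8 cDC1 libraries were fitted (adjusted p = 0.0969). Tlr2, the partner of Tlr1 at the cell surface, fell 2.22-fold, from 142 ± 12 to 64 ± 10.7 CPM (adjusted p = 5.43e-06), and Cd14, a co-receptor for lipopolysaccharide, fell as well. The median of the list was -0.18.

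Other leading rises were of genes with varied roles. Flot1, a scaffold protein of membrane microdomains, was at 139, 153, 137 and 123 CPM in MI and 19.6, 29.5, 40 and 32.4 CPM at steady state. The kinase Jak3, which signals below the common gamma chain of cytokine receptors, was at 122, 158, 163 and 123 and 38.5, 54.9, 62.1 and 54.1 CPM. Neither gene overlapped between the states, and they rose 4.56-fold (adjusted p = 1.25e-08) and 2.71-fold (6.45e-07). Wfdc17, a secreted protein of activated phagocytes, rose 4.49-fold (1.27e-08), the interferon-inducible membrane protein Ifitm2 3.44-fold (3.08e-09), and Casp6, an effector caspase, 3.23-fold (6.94e-08). Smaller rises with adjusted p from 3.27e-07 to 8.58e-06 were those of the phosphatase Ptpn1 (2.15-fold), the semaphorin receptor Plxnb2 (2.02-fold), the lysosomal endopeptidase Lgmn (2.32-fold) and the receptor kinase Grk6 (1.93-fold).

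Some of the largest rises by size were from low levels, though Plac8, named below, was at 36.8 to 78.6 CPM at steady state. Spon1, a matrix protein, was at 3.29, 18, 9.37 and 11.2 CPM in MI and 0, 1.14, 0.0992 and 0 CPM at steady state, where 2 libraries held no read (log2 change 5.15 ± 0.76 SE, adjusted p = 2.85e-05). Without steady-state replicate 2, which held most of the steady-state reads, that change was 8.07. Lpar1, a receptor for lysophosphatidic acid, was at 23, 30.8, 25 and 14.8 and 1.5, 4.45, 5.26 and 4.19 CPM (log2 change 2.62 ± 0.33 SE, adjusted p = 1.23e-06). Neither overlapped. Emb, a partner of monocarboxylate transporters, rose 4.57-fold (4.83e-09), and the adaptors Dab2 and Dok3 rose 4.22-fold (0.00412) and 4.15-fold (3.41e-05). The exchange factor Arhgef10 (3.59-fold, 0.000102) and the Fc receptor-like gene Fcrlb (3.67-fold, 0.00285) completed the group with those whose call ended without 1 library, which were Ifitm1 (log2 change 3.26, adjusted p up to 0.0745 without steady-state replicate 3), Plac8 (2.05, up to 0.0762 without steady-state replicate 4) and Dip2c (2.05, up to 0.0972 without MI replicate 1). The call of Dab2 ended when only the 8 cDC1 libraries were fitted (adjusted p = 0.232).

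**Figure D3:**
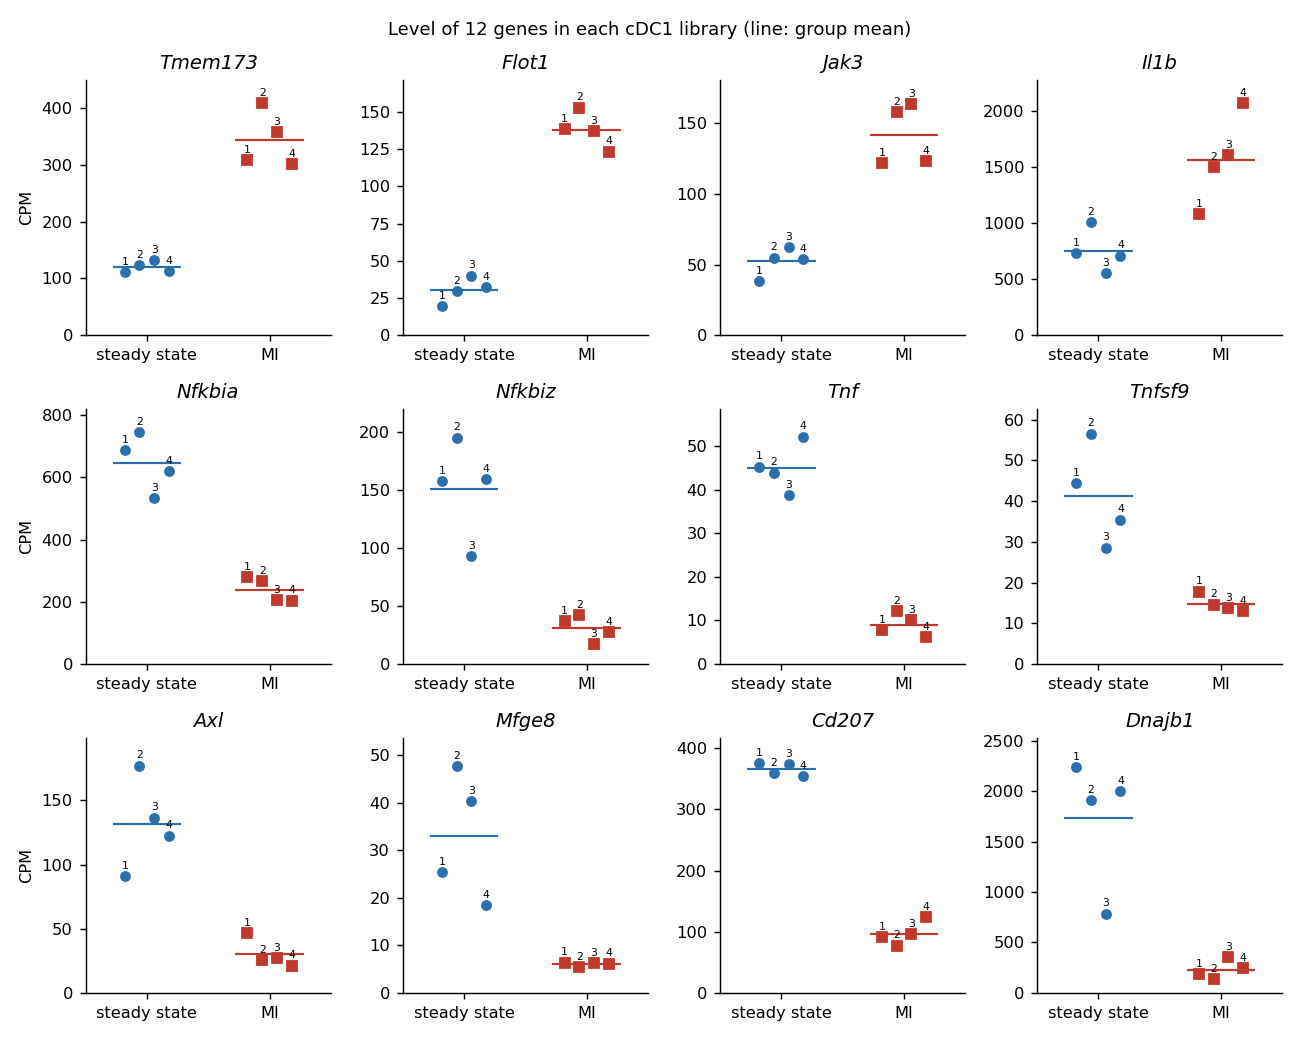
CPM of 12 genes in each cDC1 library, with circles for steady state, squares for MI, replicate numbers and lines for group means, and each vertical axis starting at 0. The groups do not overlap in any of the 12 panels, with Tmem173, Flot1, Jak3 and Il1b higher in MI and the other 8 lower.

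In the NF-kB list, which holds subunits as well as target genes, several members fell and none rose. NF-kB is a family of transcription factors held in the cytoplasm by inhibitors, and several of its targets encode those inhibitors. Of 22 genes of the list, 0 rose and 10 fell, against 2.16% and 6.72% of all genes, with a median log2 change of -0.49. The promoters of Nfkbia, Nfkbid and Nfkbie are shown because these genes fell together and each holds a kappa B-like match. Tnfaip3 and Cxcl1 also fell and hold a match, and their promoters are not shown. The windows are the 250 bases before the gene's start in RefSeq annotation on GRCm38.p6, read 5′ to 3′ on the gene's strand, with the match to GGGNNNTTCC, on either strand, in capitals. Nfkbia (chr12:55492648-55492897, minus strand), Nfkbid (chr7:30422156-30422405, plus strand, the one of its 3 annotated starts with a match) and Nfkbie (chr17:45555450-45555699, plus strand) read as follows.
Nfkbia: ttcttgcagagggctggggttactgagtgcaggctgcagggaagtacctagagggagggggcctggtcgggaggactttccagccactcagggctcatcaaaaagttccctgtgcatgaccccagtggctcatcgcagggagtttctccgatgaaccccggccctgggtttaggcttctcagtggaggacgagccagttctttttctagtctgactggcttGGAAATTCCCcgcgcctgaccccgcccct
Nfkbid: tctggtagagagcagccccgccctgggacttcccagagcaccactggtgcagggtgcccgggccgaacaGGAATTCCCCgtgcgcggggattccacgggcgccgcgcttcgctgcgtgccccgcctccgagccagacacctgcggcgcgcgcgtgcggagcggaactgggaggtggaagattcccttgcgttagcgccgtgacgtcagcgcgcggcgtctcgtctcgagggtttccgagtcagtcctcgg
Nfkbie: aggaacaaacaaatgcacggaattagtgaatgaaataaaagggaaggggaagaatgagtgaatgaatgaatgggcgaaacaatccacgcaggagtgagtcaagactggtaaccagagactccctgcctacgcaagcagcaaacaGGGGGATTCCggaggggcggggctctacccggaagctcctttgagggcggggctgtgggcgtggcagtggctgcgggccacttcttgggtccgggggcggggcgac
The match began 29, 181 and 106 bases before the start of Nfkbia, Nfkbid and Nfkbie. A match was present in 4.65% of 32851 RefSeq promoter windows of this length, and in 614 of the 9947 tested genes that have a window (6.17%). In the list it was present in 5 of the 9 genes that fell and have a window, and in 4 of 10 that did not pass.

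Nfkbia encodes IkB-alpha, the classical inhibitor. It was at 279, 267, 206 and 204 CPM in MI and 687, 745, 532 and 619 CPM at steady state. The groups lay far apart, and Nfkbia fell 2.7-fold (log2 change -1.43 ± 0.15 SE, adjusted p = 2.37e-08). Nfkbiz, a nuclear cofactor that is itself induced by NF-kB, was at 37.2, 42, 17.2 and 27.5 and 158, 195, 92.8 and 159 CPM, and Nfkbid, another nuclear IkB protein, at 19.5, 19, 16.5 and 15.7 and 71.1, 58.5, 39.6 and 84.8 CPM. For both, the lowest steady-state library (replicate 3) exceeded the highest MI library by more than 2 times. They fell 4.89-fold (adjusted p = 1.53e-06) and 3.59-fold (1.09e-05). Nfkbie fell 2.16-fold (1.34e-05), the TNF-inducible gene Tnfaip2 fell 4.00-fold (5.57e-06), and Gadd45b, a stress gene, fell 3.44-fold (0.000286). Tnfaip3, whose product A20 ends NF-kB signalling, fell 1.62-fold (0.0158, up to 0.0647 without steady-state replicate 2).

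Most of the heat shock genes tested fell. These genes encode chaperones and co-chaperones that are induced by the factor HSF1 when proteins misfold. Of 22, 0 rose and 14 fell, against 2.16% and 6.72% of all genes, with a median log2 change of -0.74. Dnajb1, an HSP40 co-chaperone, was at 184, 139, 356 and 245 CPM in MI and 2237, 1911, 786 and 2001 CPM at steady state, and Bag3, a co-chaperone of HSP70, at 7.92, 9.36, 25.7 and 16.1 and 139.7, 171, 43.9 and 176 CPM. Steady-state replicate 3 was the lowest of its group for both genes and still exceeded every MI library. Dnajb1 fell 7.51-fold (log2 change -2.91 ± 0.39 SE, adjusted p = 1.06e-05) and Bag3 8.97-fold (-3.16 ± 0.59 SE, 0.000866). Dnaja1 fell 2.4-fold (0.000162), Dnajb4 7-fold (4.05e-06) and Hsph1, an HSP110 chaperone, 2.82-fold (0.00302). The small heat shock gene Hspb1 was at 0 to 1.75 CPM in MI and 14.1 to 50.5 CPM at steady state (adjusted p = 0.000283). The HSP70 genes Hspa1a and Hspa1b, near-identical copies between which reads can be split, fell 3.29-fold (0.0202, up to 0.0788 without MI replicate 2) and 3.92-fold (0.011, or 0.0838 against steady-state replicates 2 and 3).

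The mitochondrial chaperonin genes Hspd1 and Hspe1 are transcribed away from each other from 1 promoter region, which is shown because it holds the only matches to the heat shock element GAANNTTCNNGAA found in the list. Hspd1 fell 1.55-fold (adjusted p = 0.00184, or 0.0507 against steady-state replicates 1 and 4) and Hspe1 1.71-fold (0.0148, up to 0.0632 without steady-state replicate 1). The window before the start of Hspe1 (chr1:55087898-55088147, plus strand, GRCm38.p6) carries the matches, which overlap each other, in capitals.
Hspe1: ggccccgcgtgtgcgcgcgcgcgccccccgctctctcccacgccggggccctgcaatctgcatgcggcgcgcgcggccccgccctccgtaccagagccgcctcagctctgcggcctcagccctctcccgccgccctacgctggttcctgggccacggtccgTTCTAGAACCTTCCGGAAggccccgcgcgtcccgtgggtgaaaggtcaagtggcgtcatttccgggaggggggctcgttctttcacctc
They began 89 and 84 bases before the start of Hspe1. This element occurred in 0.466% of all windows and in 2 of the 11 heat shock genes that fell and have a window. These 2 are Hspe1 and Hspd1, whose windows overlap and share this stretch, so 1 site is counted for both genes. No match lay in the windows of the other 9, nor in those of the 6 that did not pass.

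Immediate early genes changed in both directions, 2 rising and 5 falling of 24 (median log2 change -0.11), against 2.16% and 6.72% of all genes. The AP-1 subunit Jun fell 2.27-fold from 1038 ± 295 to 458 ± 104 CPM (mean ± SD, n = 4 each, adjusted p = 0.00155, or 0.07 against steady-state replicates 2 and 3) and Jund 1.77-fold (4.47e-05). Dusp2, a phosphatase that ends MAP kinase signalling, fell 2.12-fold (5.89e-06) and Myc 1.88-fold (0.000977). Egr1 fell 2.22-fold, a call that ended without any of 6 single libraries (adjusted p up to 0.0966 without steady-state replicate 4). Ier3, a survival gene, rose instead, at 46, 56.3, 62.8 and 42.1 CPM in MI and 17.7, 26.7, 24.1 and 21.5 CPM at steady state (log2 change 1.21 ± 0.18 SE, adjusted p = 2.33e-05), and so did Fosl2, another AP-1 subunit (1.78-fold, up to 0.0911 without MI replicate 4).

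Receptors and bridging proteins for dying cells changed in both directions. Of 23 apoptotic cell uptake genes tested, 10 fell and 2 rose, where 6.72% and 2.16% of all genes did, with a median log2 change of -1.09. Axl, a receptor tyrosine kinase that binds phosphatidylserine through its ligands, was at 46.6, 25.4, 27.3 and 21.2 CPM in MI and 91.2, 177, 137 and 122 CPM at steady state. Mfge8, a secreted bridge between phosphatidylserine and integrins, was at 6.37, 5.42, 6.31 and 6.14 and 25.3, 47.8, 40.3 and 18.4 CPM. The MI libraries of Mfge8 lay within 1 CPM of each other, and for neither gene did the groups overlap. Axl fell 4.37-fold (log2 change -2.13 ± 0.23 SE, adjusted p = 3.19e-07) and Mfge8 5.42-fold (-2.44 ± 0.22 SE, 2.92e-09). Gas6, the ligand of AXL, had 11.2, 13.1, 5.26 and 5.07 CPM at steady state and no read in MI, at least 122-fold lower (1.51e-10). The scavenger receptor Cd36 fell 1.94-fold from 1310.2 ± 108 to 676 ± 72.9 CPM (0.00921, or 0.0746 against steady-state replicates 1 and 4). Pros1, which encodes protein S, a second ligand of the AXL family, rose from 25.7, 39.6, 35.3 and 40.8 CPM at steady state to 65.9, 69.7, 56.8 and 55.5 CPM in MI, without overlap (1.76-fold, adjusted p = 5.01e-05). Itgav, the integrin chain that binds MFG-E8, rose 1.48-fold (0.026, up to 0.0813 without MI replicate 2).

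Antigen presentation changed in few members. Of 25 genes of MHC class I and cross-presentation, 1 rose and 2 fell (median log2 change -0.002), a share near the 8.87% of all genes that changed. Tap1, a subunit of the peptide transporter, rose 1.38-fold from 579 ± 45.3 to 799 ± 57 CPM (mean ± SD, n = 4 each, adjusted p = 0.00378, or 0.076 against steady-state replicates 2 and 3). Cybb, the NADPH oxidase subunit that limits acidification of phagosomes, fell 2.2-fold (1.34e-05), and B2m, the light chain of class I molecules, fell 1.33-fold (0.0381, up to 0.161 without steady-state replicate 2). In the class II list 2 of 14 rose, Lgmn and the invariant chain protease Ctss (1.36-fold, 0.0206, up to 0.072 without steady-state replicate 1), and the peptide editor H2-DMa fell (1.33-fold, 0.0439, up to 0.13 without steady-state replicate 1). Of all genes, 2.16% rose and 6.72% fell. The class II sum was lower in each MI library (56734 to 62567 CPM) than in any steady-state one (66022 to 74538 CPM). Only 5 of the 14 members were higher in MI. Of 18 lysosomal genes, Lamp2 rose 1.51-fold (0.00446, or 0.0772 against steady-state replicates 2 and 3), Ctsa rose 1.3-fold (up to 0.0648 without steady-state replicate 1) and the protease inhibitor Cst3 fell 1.32-fold (up to 0.135 without steady-state replicate 1). The lysosomal sum was also lower in each MI library (20131 to 22464 CPM) than in any steady-state one (23897 to 29247 CPM).

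Interferon genes had no common direction. Of 20 interferon gamma genes, 1 rose and 7 fell (median log2 change -0.34), against 2.16% and 6.72% of all genes. Irf1, the first transcription factor that interferon gamma induces, was at 64.9, 52.4, 39.4 and 46.7 CPM in MI and 149.9, 129, 114 and 123 CPM at steady state, without overlap, and fell 2.54-fold (adjusted p = 9.21e-05). The GTPase Gbp2 fell 4.68-fold (9.34e-05; log2 change -2.23, or -1.29 against steady-state replicates 1 and 4), while the GTPase Ifi47 rose 1.59-fold (0.00818, or 0.154 against replicates 2 and 3). Of 28 type I interferon genes, 4 rose and 2 fell (median 0.14), against the same 2.16% and 6.72%. All 4 rises lost the call without 1 library: Ifit2 (1.85-fold, adjusted p up to 0.124 without MI replicate 3), the transcription factor Irf7 (1.5-fold, up to 0.132 without steady-state replicate 1), the nucleic acid sensor Zbp1 (1.59-fold, up to 0.127 without steady-state replicate 4) and Dhx58 (1.36-fold, up to 0.121 without MI replicate 4). Ly6e was at 119, 63.7, 83.7 and 129 CPM in MI and 487, 739, 679 and 554 CPM at steady state, a fall of 6.22-fold without overlap (1.34e-05), and the low-level Oas2 fell with an adjusted p up to 0.148 without steady-state replicate 2.

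Receptors that guide cells in tissue included 1 rise and 2 falls among 20, near the 2.16% and 6.72% of all genes. Ccr2, which draws cells toward inflamed tissue, rose 1.49-fold from 1583 ± 205 to 2366 ± 199.6 CPM (adjusted p = 0.00339, or 0.0871 against steady-state replicates 1 and 4). Ltb4r1, the leukotriene B4 receptor, was at 39, 46.9, 51.3 and 47.4 CPM in MI and 202, 165, 183 and 183 CPM at steady state and fell 3.97-fold (0.000879). S1pr1, the receptor for the egress signal sphingosine-1-phosphate, which endothelial cells also express, was at 0.0928 to 1.18 CPM in MI and 4.96 to 29.1 CPM at steady state (6.29e-08). Of 18 cDC2 identity genes, 5 fell and only Ifitm1 rose, against 6.72% and 2.16% of all genes. The falls included Itgam, the alpha chain of CD11b (1.75-fold, 0.00316, or 0.0636 on the 8 cDC1 libraries alone), the lectin Cd209a (6.44-fold, 5.48e-05) and Esam, which is also endothelial (13.5-fold, 0.00214; log2 change -3.76, or -3.03 without steady-state replicate 2).

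Metabolic genes moved in some lists and not in others. None of 32 oxidative phosphorylation genes passed (median log2 change 0.16), though 30 were higher in MI, as were 6001 of all 13039 genes. Their sums overlapped, at 6415 to 8075 CPM in MI and 5934 to 7606 CPM at steady state. In lipid handling, the cholesterol exporter Abcg1 rose 2.11-fold (adjusted p = 0.000435) and the nuclear receptor Pparg 2.25-fold (0.000815), while the lipase Lpl fell 6.38-fold (6.94e-08) and Fabp4, also a capillary endothelial gene, fell from 6.94 to 59.9 to 0 to 0.922 CPM (4.47e-05). In heme and iron handling, Slc11a1 (NRAMP1) fell 3.44-fold (9.65e-06) and Hmox1, heme oxygenase, 2.56-fold (0.000569), while Blvra, the next enzyme of heme breakdown, rose 1.55-fold (0.0024, or 0.0694 against steady-state replicates 2 and 3). The glucose transporter gene Slc2a3 fell 2.92-fold (0.00206, or 0.0795 on the 8 cDC1 libraries alone), the collagen hydroxylase P4ha1 1.62-fold (0.0036) and the stress factor Atf4 2.36-fold (2.08e-05). Of 32 cell cycle genes, 0 rose and 3 fell, near the 6.72% of all genes that fell. These were the D-type cyclins Ccnd1 (1.9-fold, 0.00271, or 0.121 against steady-state replicates 2 and 3) and Ccnd2 (2.66-fold, 0.000252) and the inhibitor Cdkn1a (2.05-fold, 0.00109), with a list median of 0.21.

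**Figure D4:**
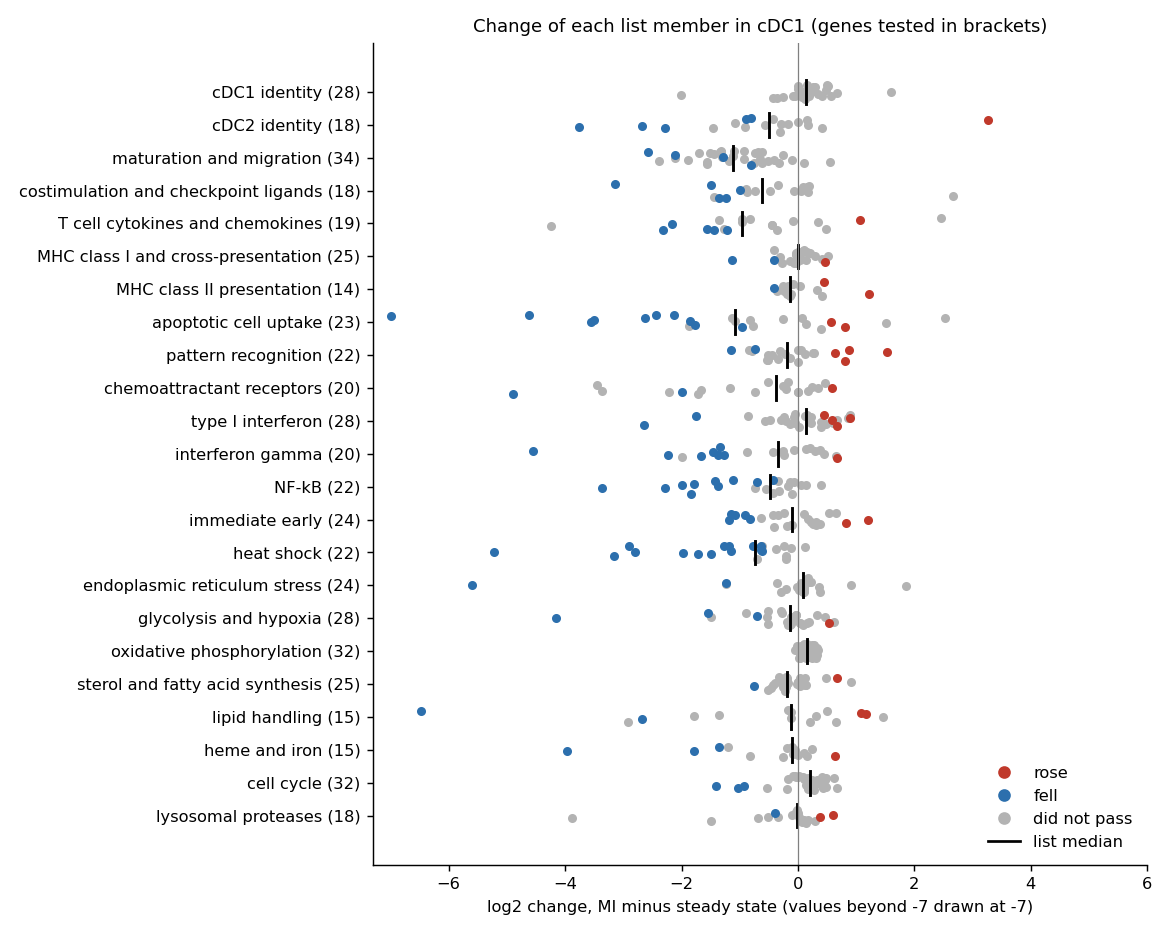
Log2 change (MI minus steady state) of every tested member of 23 gene lists in cDC1, with red for genes that rose, blue for genes that fell, grey for those that did not pass and a black bar for the list median. The 10 NF-kB and 14 heat shock genes that passed all lie below 0, and none of the 28 cDC1 identity genes or 32 oxidative phosphorylation genes passed.

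Several well-measured falls lay outside these lists. By adjusted p among genes at 10 CPM or more in all libraries, the first included Ptpro, a receptor phosphatase (3.5-fold, adjusted p = 2.12e-09), Trf, transferrin (2.08-fold, 2.80e-09), and F11r, the junctional adhesion molecule A (3.88-fold, 4.83e-09). The adaptor Grap fell 2.83-fold (3.53e-08), the membrane protein Stom 2.02-fold (2.07e-07) and Txnip, an inhibitor of thioredoxin and glucose uptake, 2.69-fold (5.43e-07). Trf was at 675, 705, 729 and 716 CPM at steady state and 372, 311, 319 and 355 CPM in MI, and F11r at 69, 108, 86.5 and 92.8 and 26.2, 26.8, 19.7 and 19 CPM. The groups did not overlap for either gene, and for Trf the libraries differed far less within each state than between the states.

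The effect of infarction in cDC1 was then set against that in the other populations, by testing the difference of the 2 effects in 1 model. It differed from the effect in cDC2 for 549 genes (4.21%), 209 higher in cDC1 (1.6%) and 340 lower (2.61%). From macrophages it differed for 527 genes (4.04%, 106 higher, 0.813%, and 421 lower, 3.23%) and from moDC for 233 (1.79%, 72 higher, 0.552%, and 161 lower, 1.23%). These 3 comparisons share the cDC1 libraries. The cDC2 group in MI has 3 libraries.

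The rise of Tmem173 was larger in cDC1 than in macrophages (difference of log2 changes 1.24 ± 0.15 SE, adjusted p = 3.92e-06) and moDC (1.16 ± 0.15 SE, 1.50e-05). Against cDC2, where its log2 change was 1.03, the difference was 0.49 ± 0.16 SE (adjusted p = 0.0777). Flot1 showed the same order, with differences of 1.68 and 1.66 that passed (adjusted p = 0.000442 and 0.000921) and 0.55 from cDC2 that did not (0.382). Wfdc17 and Lpar1 differed from all 3: the difference from cDC2 was 1.94 for Wfdc17 (adjusted p = 7.08e-05) and 3.74 for Lpar1 (7.91e-06). Lpar1 rose in cDC1 and had log2 changes of -1.12, -0.76 and -0.91 in cDC2, macrophages and moDC. Pla2g7, a phospholipase that inactivates platelet-activating factor and a gene chosen after its values were seen, rose 3.41-fold in cDC1 (adjusted p = 3.08e-09) and differed from cDC2 by 3.08 (7.52e-11). Jak3 rose in each population, with log2 changes of 1.44, 1.52, 1.46 and 1.07 in cDC1, cDC2, macrophages and moDC, and none of its 3 differences passed.

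Nfkbia, Nfkbiz and Nfkbid fell further in cDC1 than in each other population. The log2 change of Nfkbia was -1.43 in cDC1 against 0.19 in cDC2, -0.20 in macrophages and -0.08 in moDC, and the differences passed (adjusted p = 7.91e-06, 0.000161 and 9.08e-05). Nfkbiz differed by -2.89, -2.64 and -2.46 (adjusted p at most 0.000167), Nfkbid by -2.32, -1.40 and -1.72 (at most 0.0162), and Tnf by -2.87, -2.10 and -1.87 (at most 0.000396). Nfkbie differed from macrophages (-0.90, adjusted p = 0.0159), while its differences from cDC2 and moDC (-0.25 ± 0.23 and -0.48 ± 0.23 SE) did not pass. Tnfaip3 differed from cDC2 and macrophages (-1.35 and -0.99, adjusted p = 0.00247 and 0.0266) but not from moDC by the test (-0.74, 0.201). Tnfsf9 and Tlr2 fell in cDC1 beyond each other population, by -2.32 and -1.19 relative to cDC2 (adjusted p = 1.32e-05 and 0.00115). So did Axl and Mfge8, by -2.27 and -3.34 relative to cDC2 (4.50e-05 and 6.20e-09) and by -2.04 and -1.47 relative to macrophages (0.000128 and 0.0019). The mural sum, which fell in cDC1 from a mean of 214.6 to 3.54 CPM, went from 190.5 to 26.9 CPM in moDC, 46.6 to 13.5 in cDC2 and 60.6 to 56.0 in macrophages, and its part in these differences was not tested.

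For Dnajb1 and Bag3 no difference passed. Dnajb1 had log2 changes of -2.91 in cDC1, -3.12 in cDC2, -2.76 in macrophages and -3.20 in moDC, and its difference from cDC2 was 0.22 ± 0.53 SE (adjusted p = 0.917). Bag3 differed by -0.02 ± 0.81, -0.03 ± 0.77 and 0.22 ± 0.78 SE, with adjusted p of at least 0.987. Cd207, which fell in cDC1, also fell in macrophages and moDC, by more (differences 3.03 and 2.35, adjusted p = 0.000467 and 0.0107). For cDC2 the change of Cd207 itself is not given here. The resident macrophage list that holds it went from a mean sum of 7959 to 979 CPM in cDC2 and 698 to 206 CPM in cDC1.

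**Figure D5:**
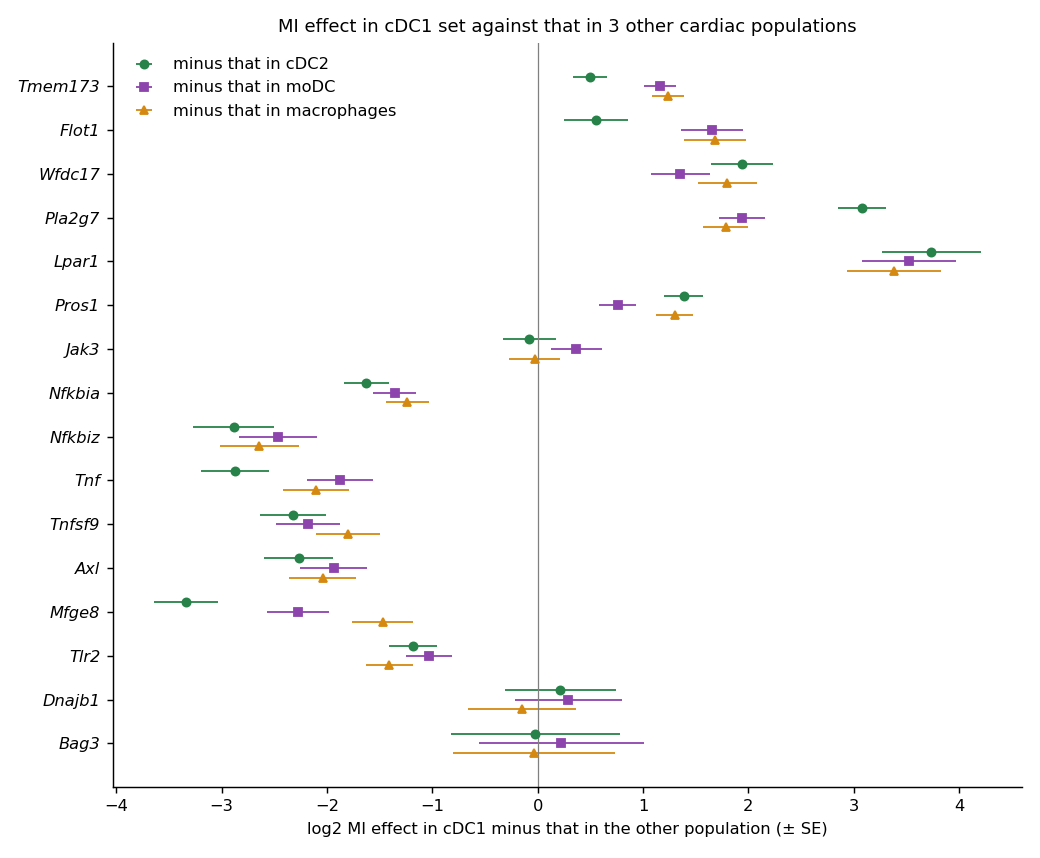
Difference between the log2 effect of infarction in cDC1 and that in cDC2 (circles), moDC (squares) and macrophages (triangles) for 16 genes, with bars of 1 SE. Nfkbia, Nfkbiz, Tnf, Tnfsf9, Axl, Mfge8 and Tlr2 lie below 0 in all 3 comparisons, Lpar1 lies above 3, and the bars of Dnajb1 and Bag3 cross 0.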

How the data were processed

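Counts are the deposited raw read numbers per gene, 1 column per library, mapped to mm10 with TopHat2 2.1.0 after Trimmomatic 0.35, per the submitters' processing notes. Which tool counted the reads, on which annotation and strand, was not given in the sources used here. Libraries were made from 4 ng of RNA with SMART-Seq and sequenced as single 75-base reads, per the labels' protocols. Rows that name no gene (reads in no gene or in more than 1) were left out of library sizes, and made up 6.42% to 16.9% and 0.858% to 1.21% of counted reads over the 31 libraries, which held 9148624 to 16531349 reads in genes.

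All genes passing filterByExpr (minimum count 10) were fitted in 1 model of 8 groups over 31 libraries with edgeR 4.0.16 (R 4.3.3, limma 3.58.1), TMM factors and the robust quasi-likelihood test, 2-sided, with Benjamini-Hochberg adjustment over 13039 genes and a threshold of 0.05. Differences between populations are contrasts of that model. CPM use TMM-scaled library sizes. On simulated counts the fit recovered 61% of 100 genes changed 2-fold and 93% of 100 changed 4-fold, with 8 false calls among 12733 genes. The changed genes were drawn above a minimum steady-state level, and counts followed the spread that the model itself had fitted. No shift of other cells' transcripts was simulated, so these figures do not cover such shifts or genes with few reads. Alternatives were DESeq2 1.42.0, other scalings, no filter, cDC1 libraries alone, a replicate block, steady-state pairs and leaving out each library.

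The members and gene lists were chosen with earlier results of these data known, and 705 of 709 listed symbols were found. Genes are named by rule: the 12 largest changes each way without overlap at 10 CPM, the 10 smallest adjusted p each way at 10 CPM in all 8 libraries, up to 4 changed members per list, 14 fixed cDC1 and maturation genes, and the 5 largest differences each way per population. Named after their values were seen were Cd207, Timd4, Nfkbie, Tnfaip3, Gadd45b, Bag3, Hspa1a, Hspa1b, Hspe1, Hspd1, Hsph1, Jun, Egr1, Fosl2, Irf7, Dhx58, Ifi47, Cd36, Itgav, Ccl22, Il6, Flt3 and Pla2g7, and the list members given by name alone. A few genes that the rule names are not reported here. Promoter windows and their motif search use RefSeq sequence on GRCm38.p6. Same-group libraries differed beyond counting noise, so none was merged.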

Additional observations from a re-analysis of the deposited data

Results flagged for a closer look

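A library that stood apart from the other 3 of its group (Dixon's ratio above its 95% critical value) was found in 25 of 298 groups of 4 values examined. The usual rate of 1 in 20 assumes normally distributed values, so it cannot be set against this count of CPM values. With 0 in the other 3 libraries, the ratio passes whatever the remaining value is. The highest MI library was the one apart for Ccl5 (27.7 CPM against 3.99 to 7, MI replicate 1), H2-DMa (1049 CPM against 927 to 944, MI replicate 1), Il12b (121 CPM against 21.1 to 30.3, MI replicate 1), Itgav (123 CPM against 107 to 109, MI replicate 2) and Myc (63.3 CPM against 43.1 to 45.7, MI replicate 3). The highest steady-state library was apart for H2-DMa (1426 CPM against 1227 to 1240.2, steady-state replicate 1), Igf2 (24.5 CPM against 8.33 to 8.48, steady-state replicate 2), Itgav (92.2 CPM against 68.6 to 70.5, steady-state replicate 4), Nfkbie (246 CPM against 169.6 to 179, steady-state replicate 2), Stom (265 CPM against 191 to 195, steady-state replicate 1), Tap1 (646 CPM against 550.1 to 566, steady-state replicate 3) and Tm4sf1 (45.4 CPM against 11.3 to 14.2, steady-state replicate 2). The lowest library was apart for Fcrlb (2.52 CPM against 5.85 to 6.07, steady-state replicate 1), Grk6 (169 CPM against 196 to 201, MI replicate 4), Irf8 (3449 CPM against 4034 to 4077, MI replicate 4), Lrrc3 (24.4 CPM against 33.2 to 34.7, MI replicate 1) and P4ha1 (43.2 CPM against 58.5 to 61.2, MI replicate 1). At low levels the same held for Abcb4 (1.59 CPM against 0 to 0.0948, steady-state replicate 3), Acta2 (1.28 CPM against 0 in the other 3, MI replicate 2), Gab1 (5.88 CPM against 1.14 to 1.85, steady-state replicate 2), Igf2 (0.0928 CPM against 0 in the other 3, MI replicate 3), Mag (0.925 CPM against 0 in the other 3, MI replicate 1), Retnla (3.34 CPM against 0 to 0.308, MI replicate 3), Serpinh1 (0.0986 CPM against 0 in the other 3, MI replicate 2) and Spon1 (1.14 CPM against 0 to 0.0992, steady-state replicate 2).

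The effect of infarction in cDC1 differed from that in another population, by the test of the difference itself, for the genes that follow, each with the difference of log2 changes and its adjusted p. Relative to cDC2, the cDC1 effect was higher for Mag (7.98, 0.00758), Retnla (5.27, 0.0133), Clec9a (4.70, 0.00042), Nrg2 (4.18, 0.0283), Ak8 (4.07, 0.00557), Lpar1 (3.74, 7.91e-06), Pla2g7 (3.08, 7.52e-11) and Wfdc17 (1.94, 7.08e-05). It was lower for Mfge8 (-3.33, 6.20e-09), Nfkbiz (-2.89, 1.80e-05), Tnf (-2.87, 1.17e-06), Nfkbid (-2.32, 0.000106), Tnfsf9 (-2.32, 1.32e-05), Axl (-2.27, 4.50e-05), Nfkbia (-1.62, 7.91e-06), Tnfaip3 (-1.35, 0.00247) and Tlr2 (-1.19, 0.00115). Genes without a read in MI cDC1, whose fitted values depend on the prior count and are no bounds, were lower too: Bcam (-9.47, 1.72e-05), Jam2 (-9.15, 0.00762), Ptprb (-8.99, 0.0433), Gab1 (-7.88, 3.35e-05) and Abcb4 (-7.51, 0.0051). Relative to macrophages it was higher for Dennd3 (5.39, 0.0161), Vwa1 (4.10, 0.00494), Siglech (3.70, 0.00551), Klrb1c (3.52, 0.0307), Lpar1 (3.38, 8.24e-06), Cd207 (3.03, 0.000467), Wfdc17 (1.80, 0.00011), Flot1 (1.68, 0.000442) and Tmem173 (1.24, 3.92e-06). It was lower for Nfkbiz (-2.64, 3.62e-05), Tnf (-2.10, 4.37e-05), Axl (-2.04, 0.000128), Tnfsf9 (-1.80, 0.000315), Mfge8 (-1.47, 0.0019), Tlr2 (-1.41, 8.73e-05), Nfkbid (-1.40, 0.0162), Nfkbia (-1.24, 0.000161), Tnfaip3 (-0.99, 0.0266) and Nfkbie (-0.90, 0.0159). Lower with no MI cDC1 read were Sorbs2 (-10.29, 0.0101), Rgs4 (-10.17, 0.0162), Olfr558 (-9.17, 0.0275), Bcam (-9.14, 3.15e-05) and Gas6 (-8.91, 1.02e-07). In the comparison with moDC it was higher for Lrrc3 (4.03, 0.00556), Lefty1 (3.79, 0.00418), Siglech (3.60, 0.012), Lpar1 (3.53, 7.72e-06), Plac8 (3.44, 0.0238), Cd207 (2.35, 0.0107), Flot1 (1.66, 0.000921), Wfdc17 (1.36, 0.00567) and Tmem173 (1.16, 1.50e-05). It was lower for Nfkbiz (-2.46, 0.000167), Mfge8 (-2.28, 8.44e-06), Tnfsf9 (-2.18, 3.49e-05), Axl (-1.93, 0.000427), Tnf (-1.87, 0.000396), Nfkbid (-1.72, 0.00491), Nfkbia (-1.36, 9.08e-05) and Tlr2 (-1.03, 0.00651). Among genes with no MI cDC1 read, lower ones were Sdc1 (-8.21, 0.000427), Gab1 (-8.14, 1.97e-05), Gas6 (-8.10, 1.58e-06), Jam2 (-8.00, 0.0387) and Aplnr (-7.75, 0.00273). Against cDC2, the positive value of Clec9a comes with log2 changes of 0.07 in cDC1 and -4.64 in cDC2. The value of Mag rests on 9 reads in 1 MI cDC1 library, without which its call ended, and that of Retnla, which lost the call without MI replicate 3 (adjusted p = 0.791), on 1 library. Ptprb lost its call in 9 alternatives, and Jam2 against moDC in 7. Klrb1c and Olfr558 against macrophages lost theirs in 3 each, each time without 1 library (adjusted p at most 0.0553 and 0.0548). So did Plac8 against moDC without steady-state replicate 2 or 3 (0.0507 and 0.0513), Nrg2 against cDC2 without MI replicate 2 (0.0527) and Abcb4 against cDC2 without steady-state replicate 3 (0.324).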

How the results depend on the processing

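The count of 1157 changed genes was 1443 with DESeq2, which shared 1147 of them in the same direction, and 1049 to 1189 with no filter on low counts and with other scalings. It was 894 on the 8 cDC1 libraries alone and 791 and 868 against steady-state replicates 1 and 4 or 2 and 3. Genes past 2-fold numbered 759, and 470 on the cDC1 libraries alone. With the replicate number as a block on those 8 libraries the 2 counts were 666 and 409. The numbers were not taken to pair the samples, since same-numbered MI and steady-state cDC1 libraries deviated with correlations of -0.0347 to 0.00433. Same-numbered steady-state cDC1 and cDC2 libraries gave 0.0589, 0.154, 0.107 and 0.135, each above every other-numbered pair of these groups, which is a hint from the data and no statement of the labels. With a block within each state, the 549, 527 and 233 differences from cDC2, macrophages and moDC became 730, 616 and 285. With the fit and the adjustment repeated on only the genes at 10 CPM or more in all 8 libraries, 435 changed and 109 passed 2-fold, where the fit on all genes gave 470 of them as changed. DESeq2 gave 809, 793 and 413 differences from cDC2, macrophages and moDC. The causes of these moves were not tested.

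Leaving out 1 cDC1 library at a time gave 823 to 1124 changed genes, 573 to 774 past 2-fold, and 434 to 555, 404 to 572 and 194 to 271 differences from cDC2, macrophages and moDC. Of 181 gene results examined, 115 kept direction and side of the threshold under every alternative run, 57 lost a call, 4 gained one and 5 changed direction. The 5 had log2 changes that never passed. Batf3 was 0.00391 with no filter, 0.0171 against steady-state replicates 2 and 3, and -0.105 to 0.0646 with 1 library left out. Against replicates 1 and 4, Ccr7 was 0.14, Il12b 0.99, Irf8 -0.0472 and Tlr3 -0.0287. With 1 library left out, Il12b ranged from -1.34 to 0.16 and Irf8 from -0.0101 to 0.0986. The median log2 change of all genes was -0.03 to -0.05 under every scaling. At 9389786 to 16531349 gene reads a library, a gene under about 1 CPM rests on few reads, and 4 libraries a group limit small changes.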

Other observations

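Markers of lymphoid and other blood cells were low in the cDC1 libraries in both states, with some exceptions. NK and innate lymphoid genes summed to 96.7 to 163 CPM at steady state and 61.7 to 103.7 CPM in MI. Of the 13, 6 fell, against 6.72% of all genes. Most of that sum was Klrk1, the NKG2D receptor gene, at 60.4 to 83.4 CPM at steady state and 43.9 to 84.5 CPM in MI, while the cytotoxic genes Nkg7, Gzma and Prf1 were at most 0.557 CPM in MI. Neutrophil markers summed to 6.63 to 14.4 and 2.46 to 4.11 CPM and B cell markers to 7.99 to 18.4 and 4.34 to 7.58 CPM, with no gene of either list passing the test. Of 23 monocyte and macrophage genes, 3 rose and 7 fell, where 2.16% and 6.72% of all genes did. Their sum was 3913 to 4249 CPM at steady state and 3660.0 to 4089 CPM in MI, against 58215 to 71603 CPM in steady-state macrophages. Plasmacytoid dendritic cell genes summed to 324.2 to 444.8 CPM at steady state and 441.5 to 569.3 CPM in MI, mostly through Irf7.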
